A study of Mus musculus with 6 samples.

Results

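The extracellular matrix genes of mouse inguinal fat were examined in whole tissue with and without adipocyte *Cebpa*. A gene was taken if its symbol named a collagen chain or was 1 of 28 listed matrix genes (fibronectin, elastin and fibrillins, small proteoglycans, matricellular proteins, crosslinking enzymes, proteases and their inhibitors), and if its mean over the 6 libraries was at least 0.5 TPM (a share of transcripts, normalized for length, with the same total in each library). The rule gave 64 genes of the 36144 symbols in the authors' TPM table, from 72 symbols before the minimum. There were 36 collagen genes among 44 collagen symbols, and all 28 other genes passed. The 8 collagens under the minimum were *Col6a5*, *Col4a3*, *Col24a1*, *Col25a1*, *Col22a1*, *Col2a1*, *Col10a1* and *Col19a1*. Just inside it were *Col8a2* at 0.520 and *Col9a1* at 0.563 mean TPM, and just outside were *Col6a5* at 0.274 and *Col4a3* at 0.206.

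RNA-seq was done on inguinal white fat (both depots of a mouse together, lymph nodes taken out) from 10-week-old female mice of C57BL6/J background fed at random, with 1 library per mouse. The 3 Cebpa_fl/fl controls had floxed *Cebpa* alleles and no Cre. The 3 Cebpa_ASKO mice had the same floxed alleles and the AdipoQ-Cre transgene, so the gene is lost late in differentiation in cells that express adiponectin. Loss or retention in single cell types was not measured in these whole-tissue libraries. p-values measure the spread between these 6 mice, and in whole tissue fewer cells of a type and less RNA per cell cannot be told apart.

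The matrix of fat has an interstitial part, made of fibrils of collagens I, III and V with beaded filaments of collagen VI and small proteoglycans, and a basement membrane of collagen IV and laminin that wraps every adipocyte and vessel. Fibroblasts and adipocyte progenitors make most of the interstitial part, while mature adipocytes and endothelial cells lay down their own basement membranes. Fibril assembly, crosslinking and breakdown are set by enzymes and by matricellular proteins, which bind the matrix without building it.

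Genotypes were compared gene by gene with the quasi-likelihood test of edgeR on estimated counts, and p-values were adjusted by Benjamini-Hochberg over every gene tested. Called means an adjusted p below 0.05, and log2 fold changes are Cebpa_ASKO over Cebpa_fl/fl. Total estimated counts were 46237121, 46601320 and 49477671 in Cebpa_fl/fl 1, 2 and 3, and 33141769, 37957065 and 42243013 in Cebpa_ASKO 1, 2 and 3. *Cebpa* itself stood at 204, 238 and 243 TPM in the controls and at 17.3, 23.9 and 20.1 TPM in Cebpa_ASKO, without overlap (log2 fold change -3.55, standard error 0.131, adjusted p = 0.000163, edgeR; exact two-sided permutation test of TPM, p = 0.1, the smallest that 3 against 3 allows). The labels therefore match the libraries. Adipocyte markers were present in all libraries, although *Retn* and *Adrb3* were between 1.18 and 4.08 TPM in Cebpa_ASKO.

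One control library stood apart in its matrix RNA. The 64 genes summed to 5737, 10336 and 6139.8 TPM in Cebpa_fl/fl 1, 2 and 3, and to 6939, 7638 and 8877 TPM in Cebpa_ASKO 1, 2 and 3. Cebpa_fl/fl 2 was above every other library, the other controls were below all Cebpa_ASKO libraries, and the genotypes overlapped. Of the 64 genes, 53 had their highest control value (in CPM, counts normalized for library size) in Cebpa_fl/fl 2, or 82.8%, against 37.0% of all genes tested. The median log2 ratio of Cebpa_fl/fl 2 to the mean of the other controls was 0.50 for the matrix genes and -0.01 for all genes tested. The 10 fibroblast and progenitor markers (*Ly6a* the most abundant) summed to 1829.6, 3729 and 1524 TPM in the controls and to 2628, 2734 and 3577 TPM in Cebpa_ASKO, and the 9 macrophage markers (*Lyz2* the most abundant) to 1562, 3228 and 1110.5 TPM and to 1730.0, 1968 and 2799 TPM. Both lists were highest in the same control library, both overlapped between genotypes, and edgeR called 0 genes in either (0 at an unadjusted p below 0.05, and 0 by DESeq2). Their part in the matrix values was not tested. Results are therefore given with and without Cebpa_fl/fl 2 where it matters. That library was singled out by these same matrix values, so leaving it out must raise most of their log2 fold changes. Values without it show how far a result depends on 1 mouse and are not separate evidence of a rise.

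**Figure D1:**
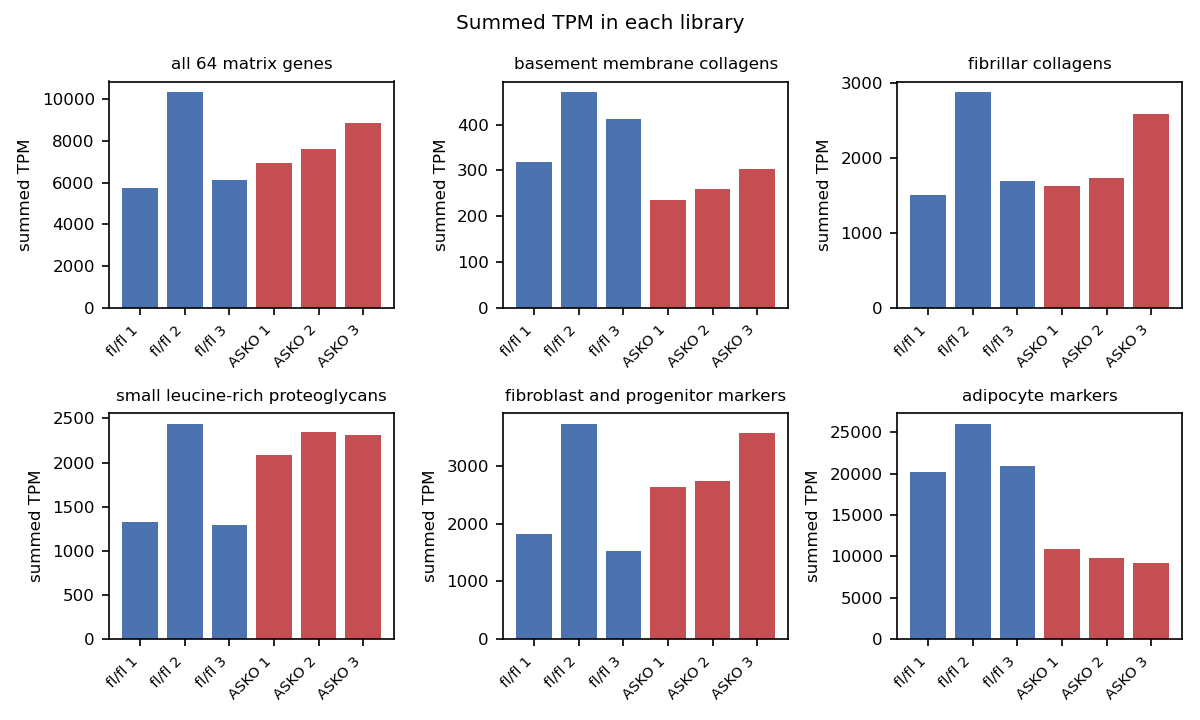
Summed TPM (vertical axes, starting at 0) in each of the 6 libraries, controls in blue and Cebpa_ASKO in red, for the matrix genes, 3 of their groups and 2 lists of cell type markers. Cebpa_fl/fl 2 is the tallest blue bar in every panel, and only the basement membrane collagens and the adipocyte markers are lower in all Cebpa_ASKO libraries than in all controls.

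All 64 genes passed the filter on low counts. Of these, 2 were called higher in Cebpa_ASKO and 2 lower at an adjusted p below 0.05, against 1.39% higher, 3.84% lower and 5.23% in either direction of the 16069 genes tested. The 4 called genes are 6.25% of the 64, so the share was close to that of all genes. At an unadjusted p below 0.05 were 13 of the 64 and 3185 of all 16069, and DESeq2 called 5 of the 64 higher and 4 lower, and 676 and 1137 of all genes. The genes called higher were *Col27a1* and *Comp*, and those called lower were *Col4a1* and *Col4a2*. *Comp* had a mean of 0.420 TPM in the controls and 3.63 TPM in Cebpa_ASKO. It thus met the minimum of 0.5 TPM only through Cebpa_ASKO, and its place in the count of genes called higher depends on that group. The same held for *Col9a1*, not called, at 0.381 and 0.745 TPM. With library totals alone in place of TMM scaling, 4 were called higher and 1 lower. The 3 Cebpa_ASKO libraries lay all above the controls in CPM for 10 genes and all below for 5, or 23.4% together, against 12.9% above, 13.2% below and 26.1% together of all genes tested. The median log2 fold change was 0.16 for the matrix genes (46 of 64 above 0) and 0.02 for all genes.

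Without Cebpa_fl/fl 2, 6 matrix genes were called higher and 1 lower, where 1.62% of all genes tested were called higher and 4.03% lower. The median of the 64 then became 0.43, with 55 above 0, and that of all genes was 0.02. The direction of this shift was set by leaving out the control in which most of these genes were highest. In the same setting the median was 0.55 for the fibroblast and progenitor markers, with *Ly6a* called higher (adjusted p = 0.0498, edgeR), and 0.65 for the macrophage markers, with 9 of 9 above 0 and 0 called. The 4 matrix genes called higher in addition were *Lum*, *Ogn*, *Mmp2* and *Col16a1*. For these 4 genes the call thus turned on 1 control mouse, and the full set of libraries called none of them. Among the 9 fibrillar collagens the median moved only from -0.03 to 0.09, and *Col27a1* was the gene called in both settings.

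**Figure D2:**
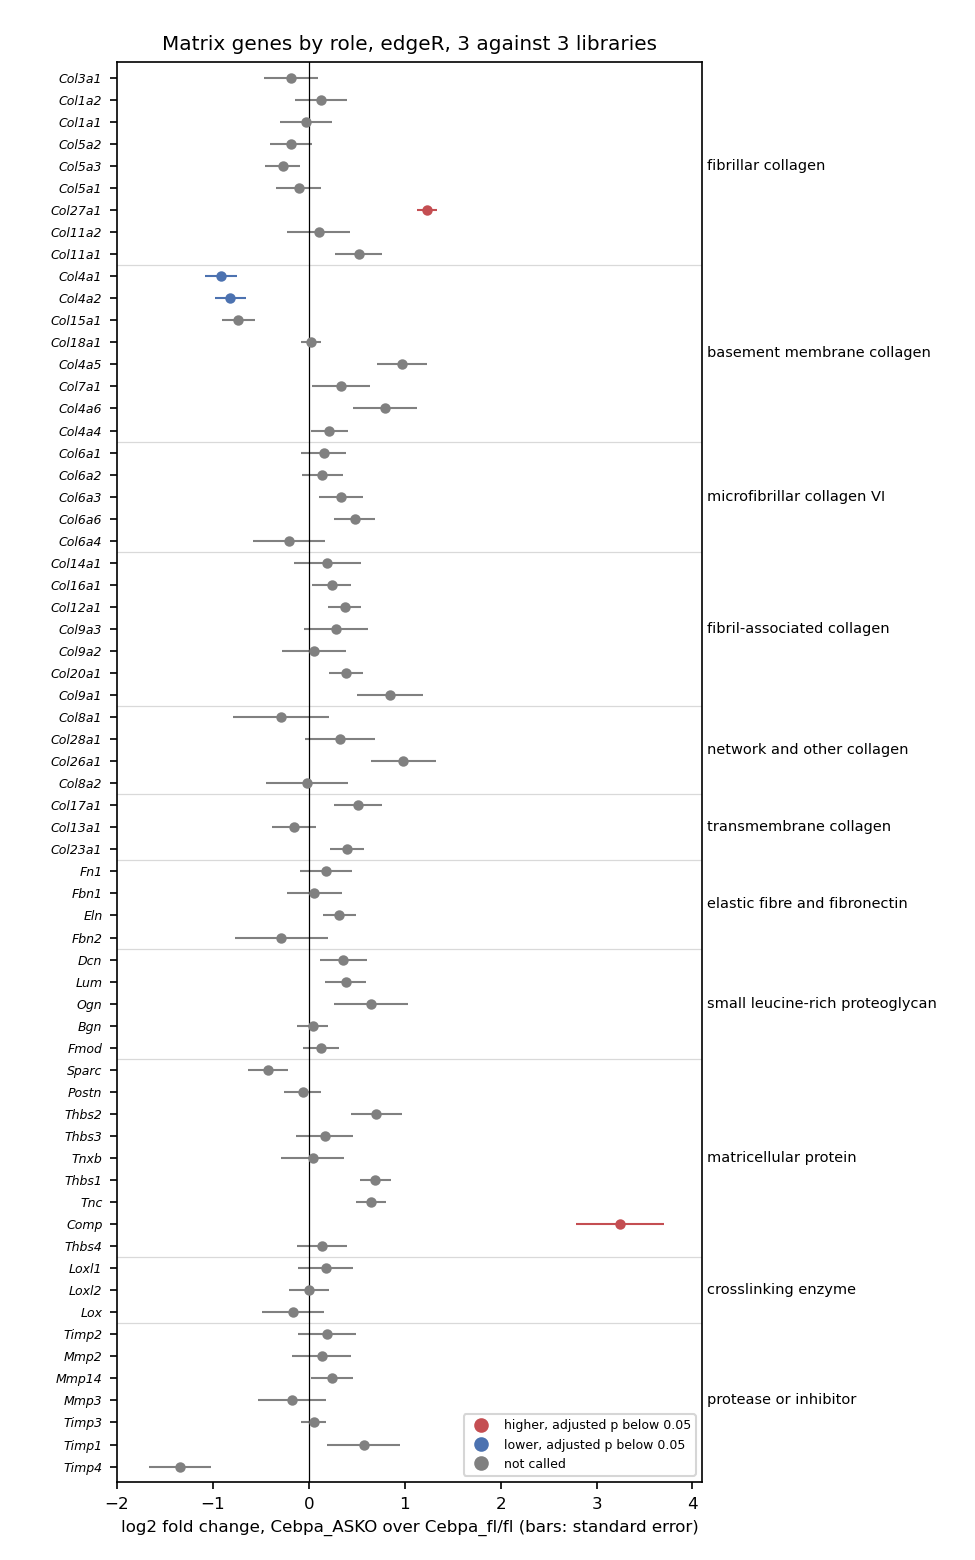
Log2 fold change of Cebpa_ASKO over Cebpa_fl/fl (horizontal axis) of each of the 64 matrix genes, with its standard error, grouped by role and ordered by mean TPM within a role, 3 libraries per genotype. The 2 genes called higher are red, the 2 called lower are blue, and most of the grey bars of the abundant interstitial genes cross 0.

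The fibrillar collagens form the tension-bearing fibrils. *Col3a1*, the most abundant of them and the chain of collagen III, stood at 897, 1725 and 1012 TPM in the controls and at 917, 943 and 1486 TPM in Cebpa_ASKO. *Col1a1* and *Col1a2*, the chains of collagen I, had means of 265 ± 104 and 378 ± 147 TPM (SD, n = 3) in the controls and of 270.0 ± 68.6 and 428 ± 100.2 TPM in Cebpa_ASKO. All of these overlapped, with Cebpa_fl/fl 2 and Cebpa_ASKO 3 as the high libraries, and none was called (log2 fold changes -0.18, -0.03 and 0.13, adjusted p from 0.799 to 0.972, edgeR). The chains of collagen V, which sets fibril diameter, had log2 fold changes of -0.11 (*Col5a1*), -0.18 (*Col5a2*) and -0.27 (*Col5a3*), none called. Without Cebpa_fl/fl 2 the sign turned for *Col3a1* (0.093), *Col1a1* (0.28), *Col5a1* (0.074) and *Col5a2* (0.061).

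*Col27a1* was the exception among the fibrillar genes. It encodes a fibrillar collagen known mainly from cartilage, and spans 63214004 to 63334991 on chromosome 4 (GRCm38). Its level was 4.32, 4.42 and 4.06 TPM in the controls and 9.16, 11.6 and 10.5 TPM in Cebpa_ASKO. The controls were nearly level, Cebpa_fl/fl 2 included, and every Cebpa_ASKO library was above them (log2 fold change 1.24, standard error 0.104, adjusted p = 0.00169, edgeR). The call held whichever library was left out, with log2 fold changes from 1.17 to 1.31. Its protein-coding transcript Col27a1-201 rose with the rest, from 2.07, 2.13 and 1.76 TPM to 4.02, 5.42 and 5.36 TPM, but held only 47.1% of the gene's TPM. A further 23.8% was assigned to a processed transcript and 22.5% to a transcript annotated as a target of nonsense-mediated decay. In length-normalized level *Col27a1* remained far below *Col3a1* in every library.

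Ratios of chains were computed within single libraries. *Col1a1* over *Col1a2* in TPM was 0.685, 0.702 and 0.712 in the controls and 0.618, 0.627 and 0.642 in Cebpa_ASKO, and *Col3a1* over *Col1a1* was 4.59, 4.48 and 4.72 and then 4.20, 3.87 and 4.27. Both ratios were lower in all 3 Cebpa_ASKO libraries, also against Cebpa_fl/fl 2 (p = 0.1 for each by exact permutation, two-sided, the smallest possible). They were 2 of 7 ratios computed, chosen after the values had been seen, and the other 5 overlapped.

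**Figure D3:**
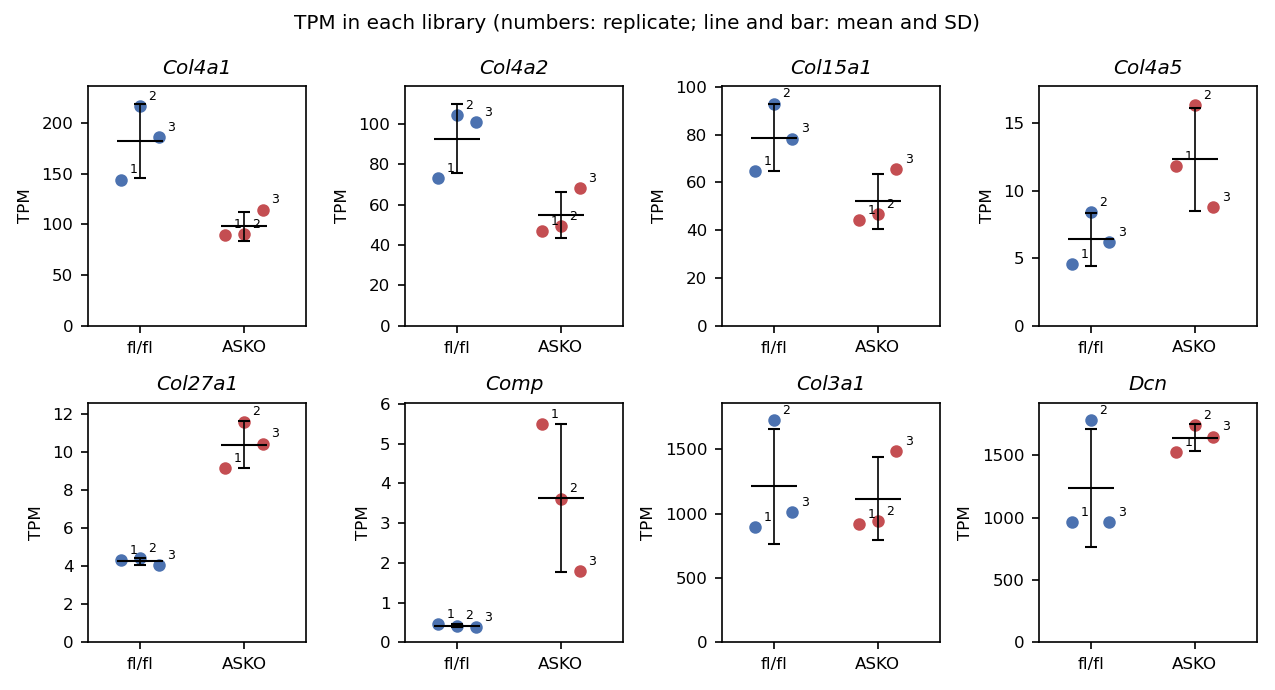
TPM (vertical axes, starting at 0) of 8 matrix genes in each library, with the replicate number beside each point and the mean and SD (n = 3) as a line and bar. *Col4a1*, *Col4a2* and *Col15a1* are lower and *Col4a5*, *Col27a1* and *Comp* higher in all 3 Cebpa_ASKO libraries, except that *Col15a1* in Cebpa_ASKO 3 (65.5 TPM) slightly exceeds Cebpa_fl/fl 1 (64.9 TPM), while *Col3a1* and *Dcn* overlap.

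Among the 8 basement membrane collagens, 2 were called lower and 0 higher, against 3.84% and 1.39% of all genes. *Col4a1* and *Col4a2* encode the chains of the common collagen IV network. *Col4a1* stood at 144, 216 and 186 TPM in the controls and at 89.8, 90.2 and 115 TPM in Cebpa_ASKO, and *Col4a2* at 72.9, 104 and 101 TPM and at 47.0, 49.3 and 68.0 TPM. Every Cebpa_ASKO library was below every control for both genes. The log2 fold changes were -0.91 (standard error 0.167, adjusted p = 0.0301, edgeR) and -0.82 (standard error 0.164, adjusted p = 0.0397, edgeR). Their direction held in every library left out, but the calls did not. The adjusted p of *Col4a1* became 0.0817 without Cebpa_fl/fl 3, 0.138 without Cebpa_ASKO 1 and 0.128 without Cebpa_ASKO 2. That of *Col4a2* became 0.0501, 0.0632 and 0.104 without Cebpa_fl/fl 1, 2 or 3, 0.168 without Cebpa_ASKO 1 and 0.154 without Cebpa_ASKO 2, and it was 0.0657 with library totals alone. DESeq2 called both genes and limma on filtered TPM only *Col4a1*. Neither gene was called by unfiltered limma or with the replicate number as a block. The ratio of *Col4a1* to *Col4a2* in TPM overlapped between genotypes and lay between 1.68 and 2.08 in the 6 libraries.

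The pair is arranged head to head on chromosome 8 of GRCm38, *Col4a1* on the minus strand from 11198423 to 11312826 and *Col4a2* on the plus strand from 11312805 to 11449287, so that their annotated first exons overlap by 22 bases. Since both fell together, the RefSeq promoter windows (GRCm38.p6, 250 bases before to 50 after each start) are shown for the shared start region, each 5′ to 3′ on its own strand, *Col4a1* at chr8:11312777-11313076 (minus) and *Col4a2* at chr8:11312555-11312854 (plus). The windows share 78 bases. Capitals mark CCAAT, the classical CCAAT box, on either strand (as CCAAT or ATTGG).
Col4a1: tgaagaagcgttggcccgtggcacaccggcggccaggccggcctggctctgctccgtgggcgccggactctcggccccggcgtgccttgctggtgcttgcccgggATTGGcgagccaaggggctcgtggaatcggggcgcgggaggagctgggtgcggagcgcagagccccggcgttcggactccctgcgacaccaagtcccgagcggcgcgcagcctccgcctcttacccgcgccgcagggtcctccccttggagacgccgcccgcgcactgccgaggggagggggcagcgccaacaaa
Col4a2: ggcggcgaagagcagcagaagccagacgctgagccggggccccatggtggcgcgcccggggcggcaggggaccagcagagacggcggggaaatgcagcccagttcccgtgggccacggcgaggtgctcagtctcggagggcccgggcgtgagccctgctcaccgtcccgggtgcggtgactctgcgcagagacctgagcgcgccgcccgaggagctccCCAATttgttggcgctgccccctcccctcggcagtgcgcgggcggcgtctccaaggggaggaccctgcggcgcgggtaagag
Each window held 1 such match, at different sites, and no match to TTGCNNAA, a form of the element that C/EBP proteins bind, on either strand. CCAAT was found in 37.9% and TTGCNNAA in 10.8% of 27025 promoter windows of the same length, 1 per gene. Among the 47 matrix genes with a window, 18 held CCAAT and 4 held TTGCNNAA. Windows are 300 bases and were searched for these letters only.

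Other basement membrane collagens followed the pair or went against it without a call. *Col15a1*, a proteoglycan collagen that ties basement membranes to the fibrils outside them, stood at 64.9, 93.0 and 78.3 TPM in the controls and at 44.4, 46.8 and 65.5 TPM in Cebpa_ASKO. In TPM 1 library of each genotype met and in CPM none did, and the log2 fold change of -0.73 had an adjusted p of 0.0652 (edgeR). The adjusted p was 0.0239 without Cebpa_ASKO 3 and 0.105 without Cebpa_fl/fl 2, and reached 0.227 over the libraries left out (edgeR). With DESeq2 it was 0.00235. *Col18a1*, the related collagen that yields endostatin, was level (log2 fold change 0.03, adjusted p = 0.935, edgeR). *Col4a5* and *Col4a6*, a second head-to-head collagen IV pair on chromosome X whose annotated starts are 1308 bases apart, had log2 fold changes of 0.97 and 0.79 (adjusted p = 0.0978 and 0.250, edgeR). *Col4a5* was 4.58, 8.44 and 6.20 TPM in the controls and 11.9, 16.3 and 8.80 TPM in Cebpa_ASKO, above all controls but by little in Cebpa_ASKO 3, and DESeq2 called it (adjusted p = 0.00823). Because *Col4a1* and *Col4a2* are the abundant members, the 8 basement membrane collagens together fell from 319, 471 and 412 TPM to 235, 259 and 302 TPM, without overlap and without a test.

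Collagen VI forms the beaded filaments around adipocytes. *Col6a1* was 88.7, 172 and 96.8 TPM in the controls and 120.4, 130.1 and 161 TPM in Cebpa_ASKO, with Cebpa_fl/fl 2 highest of all. None of the 5 collagen VI genes was called by edgeR or DESeq2 (0 at an unadjusted p below 0.05), and their median log2 fold change was 0.15, or 0.43 without Cebpa_fl/fl 2. The 7 fibril-associated collagens, which decorate fibril surfaces, had no call either (1 at an unadjusted p below 0.05, 0 by DESeq2), with a median of 0.29, or 0.54 without Cebpa_fl/fl 2. *Col14a1*, the most abundant of these, was 30.5, 77.4 and 33.9 TPM in the controls and 46.8, 68.3 and 53.7 TPM in Cebpa_ASKO. The 2 lower control values were below all Cebpa_ASKO libraries and the third was above them all, so that its log2 fold change of 0.19 became 0.71 (adjusted p = 0.0655, edgeR) without Cebpa_fl/fl 2 and -0.011 and -0.012 without Cebpa_fl/fl 1 and 3.

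Among the 4 network-forming and other collagens and the 3 transmembrane ones, edgeR called none (1 of the 7, *Col26a1*, at an unadjusted p below 0.05, and 0 by DESeq2). *Col8a1*, a chain of the short-chain collagen of vessel walls, ranged from 3.20 to 8.43 TPM in the controls and from 2.09 to 7.16 TPM in Cebpa_ASKO. *Col17a1*, a hemidesmosome collagen of epithelia, stood at 3.81, 4.81 and 4.96 TPM and at 4.88, 9.62 and 6.18 TPM. Both overlapped, with log2 fold changes of -0.29 and 0.51. *Col26a1* had a log2 fold change of 0.99 (adjusted p = 0.169, edgeR) at 1.06 to 1.61 TPM in the controls and 2.16 to 3.95 TPM in Cebpa_ASKO, but 86.1% of its TPM was on transcripts not annotated as protein-coding and it had between 30.3 and 86.9 estimated counts, so its level is uncertain.

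Fibronectin, elastin and the fibrillins form the provisional and elastic matrix. *Fn1* stood at 182, 359 and 184 TPM in the controls and at 275, 306 and 305 TPM in Cebpa_ASKO, where the spread was small. Cebpa_fl/fl 2 was above and the other controls below all Cebpa_ASKO libraries, and no call was made for any of the 4 genes (0 at an unadjusted p below 0.05, 0 by DESeq2). A retained-intron transcript took 44.7% of the *Fn1* TPM, so levels of single fibronectin forms are not given.

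The small leucine-rich proteoglycans bind fibrils and limit their width. Decorin, *Dcn*, had the highest mean TPM of the 64 genes, with 966, 1781 and 963 TPM in the controls and 1526, 1741 and 1649.9 TPM in Cebpa_ASKO. *Ogn*, osteoglycin, was 98.2, 227 and 75.5 TPM in the controls and 206, 175 and 265 TPM in Cebpa_ASKO, and *Lum*, lumican, 166, 288 and 161 TPM and 241, 303 and 289 TPM. In all 3 genes the controls other than Cebpa_fl/fl 2 were below every Cebpa_ASKO library, and that library alone made the genotypes overlap. None of the 5 genes was called (0 at an unadjusted p below 0.05, 0 by DESeq2). The log2 fold changes were 0.36, 0.65 and 0.38 with all libraries and 0.65, 1.19 and 0.65 without Cebpa_fl/fl 2 (adjusted p = 0.0590, 0.0422 and 0.0346, edgeR).

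Of the matricellular genes, *Comp* had the largest log2 fold change of all 64 genes, among which it was counted only through its Cebpa_ASKO values. It encodes cartilage oligomeric matrix protein, a pentamer that binds fibrillar collagen and helps it to assemble, and spans 70373558 to 70382066 on chromosome 8. Its level was 0.457, 0.420 and 0.384 TPM in the controls and 5.49, 3.61 and 1.79 TPM in Cebpa_ASKO. The controls agreed closely while the Cebpa_ASKO libraries spread 3-fold, all far above them (log2 fold change 3.25, standard error 0.457, adjusted p = 0.0110, edgeR). The counts behind this were 29, 32 and 34 in the controls and 320, 248 and 136 in Cebpa_ASKO, and the protein-coding transcript Comp-201 held 94.3% of the TPM. When each library was left out, the log2 fold change lay between 2.78 and 3.57 and the adjusted p between 0.00485 and 0.0498. Unfiltered limma on TPM did not call it (adjusted p = 0.259).

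*Comp* is known from cartilage and tendon, and markers of both were read beside it. Of 8 cartilage markers, *Acan*, *Matn1* and *Matn3* lay between 0 and 0.0195 TPM in all 6 libraries. The list summed to 25.9, 33.2 and 31.0 TPM in the controls and to 30.4, 26.4 and 39.5 TPM in Cebpa_ASKO, mostly *Snorc*. Of the 3 tested, *Sox9* was called higher (log2 fold change 0.67, adjusted p = 0.0291, edgeR, up to 0.122 with a library left out). *Cnmd*, at 0.754, 4.28 and 1.27 TPM in the controls and 0.591, 0.287 and 0.356 TPM in Cebpa_ASKO, was below all controls and not called (log2 fold change -2.25, adjusted p = 0.113, edgeR, and -1.40 without Cebpa_fl/fl 2). At an unadjusted p below 0.05 there were 2 genes, and DESeq2 called 1 higher and 1 lower. The 8 tendon and fascia markers summed to 6.41, 13.3 and 5.85 TPM and to 10.9, 10.5 and 14.5 TPM, with *Cilp* the most abundant, *Tnmd* at 0.232 to 0.701 TPM, *Cilp2* at or near 0 and 0 called (0 at an unadjusted p below 0.05, 0 by DESeq2). Both sums overlapped between genotypes. *Chad*, a gene of cartilage and tendon in the second list with too few counts to be tested, was 0.0165, 0.0176 and 0.0168 TPM in the controls and 0.118, 0.131 and 0.157 TPM in Cebpa_ASKO, without overlap. The part of either tissue in the *Comp* values was not tested.

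Thrombospondin 1 and tenascin C, which act on cell adhesion, were above the controls without a call. *Thbs1* was 10.5, 12.2 and 11.4 TPM in the controls and 19.8, 15.2 and 21.8 TPM in Cebpa_ASKO (log2 fold change 0.69, standard error 0.159, adjusted p = 0.0602, edgeR). *Tnc* was 1.62, 1.64 and 2.02 TPM and then 2.82, 3.34 and 2.53 TPM (log2 fold change 0.65, standard error 0.160, adjusted p = 0.0758, edgeR). In both the genotypes did not overlap and Cebpa_fl/fl 2 was not unusual, and both were called by DESeq2 and with library totals alone. Without Cebpa_fl/fl 2 the adjusted p was 0.0904 for *Thbs1* and 0.126 for *Tnc* (edgeR). Over all libraries left out it lay between 0.0170 and 0.194 for *Thbs1* and between 0.0477 and 0.251 for *Tnc*. These genes were singled out after their values had been seen. *Thbs2* was also above all controls, at 33.2, 47.5 and 22.3 TPM and then 52.9, 50.3 and 71.5 TPM. Its log2 fold change was 0.70 (adjusted p = 0.204, edgeR), and DESeq2 did not call it. In CPM, 4 of the 9 matricellular genes lay above the controls without overlap and 1 below, against 12.9% and 13.2% of all genes tested. *Sparc*, a collagen-binding protein and the most abundant of this group, stood at 937, 1615 and 1084 TPM in the controls and at 877, 888 and 1038 TPM in Cebpa_ASKO. The genotypes overlapped in TPM (Cebpa_ASKO 3 was above Cebpa_fl/fl 1) but not in CPM, with a log2 fold change of -0.42 (adjusted p = 0.324, edgeR) that was -0.22 without Cebpa_fl/fl 2.

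The crosslinking and remodelling enzymes gave no call. *Loxl1*, a lysyl oxidase of elastic fibres, was 72.4, 130.1 and 60.6 TPM in the controls and 80.4, 93.1 and 136 TPM in Cebpa_ASKO. *Timp2*, an inhibitor of metalloproteinases, was 184, 372 and 155 TPM and 229, 291 and 319 TPM. Both overlapped, as did all 3 crosslinking genes and 6 of the 7 genes for proteases and inhibitors. *Timp4*, the inhibitor known from fat and heart, was 5.73, 13.5 and 7.10 TPM in the controls and 3.66, 2.83 and 3.96 TPM in Cebpa_ASKO. Every Cebpa_ASKO library was below the controls, the log2 fold change of -1.34 had an adjusted p of 0.0720 (edgeR), and DESeq2 called it lower (adjusted p = 0.00100). Without Cebpa_fl/fl 2, the highest control, the log2 fold change of *Timp4* was -0.96 (adjusted p = 0.0705, edgeR). Over all libraries left out its adjusted p reached 0.226 (edgeR).

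Other genes of matrix assembly and binding were read in 6 lists. Of 116 tested, 4 were called higher and 4 lower, or 6.90% together against 5.23% of all genes, with a median log2 fold change of 0.13. Without Cebpa_fl/fl 2, 12 were called higher and 3 lower, where 1.62% of all genes tested were called higher and 4.03% lower. The median of these lists was then 0.35. Among 15 laminins and basement membrane partners, 3 were called lower and 0 higher, where 3.84% of all genes were called lower. Without Cebpa_fl/fl 2, 1 of the list was called lower. *Lamc3*, a laminin gamma chain, was 4.99, 5.17 and 6.51 TPM in the controls and 1.76, 2.27 and 3.18 TPM in Cebpa_ASKO, without overlap (log2 fold change -1.29, standard error 0.187, adjusted p = 0.0127, edgeR). *Lama4*, the laminin alpha chain of fat cells and capillaries, had a log2 fold change of -0.71 (adjusted p = 0.0483, edgeR) and *Nid2*, which links laminin to collagen IV, of -0.84 (adjusted p = 0.0432, edgeR). Against them, *Lama5*, an alpha chain also of epithelia, had a log2 fold change of 1.18 and was not called (adjusted p = 0.176, edgeR), and the list's median was -0.01. The call of *Lamc3* ended without Cebpa_ASKO 1 (adjusted p = 0.0632, edgeR) or Cebpa_ASKO 2 (0.0675). Without Cebpa_fl/fl 2 that of *Lama4* ended (0.0728) and that of *Nid2* (0.0762), and with other libraries left out they reached 0.188 and 0.174.

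Of 27 collagen processing genes, 1 was called, *Pcolce*, the enhancer of the protease that trims procollagen. It was 89.9, 137 and 86.4 TPM in the controls and 219, 206 and 204 TPM in Cebpa_ASKO, and no library overlapped (log2 fold change 0.96, standard error 0.186, adjusted p = 0.0358, edgeR). *Serpinh1*, the collagen chaperone and the most abundant of the list, was level (log2 fold change -0.11). Single genes were called higher among 14 elastic fibre genes (*Ltbp2*, log2 fold change 1.02, adjusted p = 0.0382, edgeR) and among 16 tested proteoglycans and glycoproteins (*Ecm2*, log2 fold change 1.00, adjusted p = 0.0463, edgeR). Of 25 receptors, the laminin receptor chain *Itga7* was called lower (log2 fold change -0.72, adjusted p = 0.0171, edgeR) and *Itgav*, a chain of fibronectin and vitronectin receptors, higher (0.44, adjusted p = 0.0287, edgeR). In the order given, 3.70%, 7.14%, 6.25% and 8% of these lists were called in either direction, against 5.23% of all genes. None of 19 tested proteases and inhibitors was called by edgeR (6 at an unadjusted p below 0.05, against 3185 of all 16069, and 2 called lower by DESeq2, against 1137 of all genes). Most of these calls sat near the threshold: *Itgav* lost its call whichever library was left out (adjusted p from 0.0501 to 0.123), *Pcolce* kept its own only without Cebpa_fl/fl 2 (0.00732), *Ecm2* only without Cebpa_fl/fl 2 and *Ltbp2* only without Cebpa_ASKO 3. Over the libraries left out the adjusted p of *Pcolce* reached 0.141, that of *Ltbp2* 0.148, that of *Ecm2* 0.173 and that of *Itga7* 0.0737.

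Several cell type lists moved with the genotype beside these genes. The 10 adipocyte markers (*Fabp4* the most abundant) summed to 20230.0, 25999 and 20847 TPM in the controls and to 10937, 9845 and 9218 TPM in Cebpa_ASKO, with 6 called lower. Of these, *Plin1* (adjusted p up to 0.0806, edgeR) and *Pparg* (up to 0.0700) lost their calls with some library left out. The 8 endothelial markers (*Egfl7* the most abundant) summed to 181, 219 and 219 TPM and to 144, 141 and 201 TPM, with 7 of 8 below 0 and 1, *Emcn*, called lower (4 below the controls without overlap in CPM, against 13.2% of all genes, 4 at an unadjusted p below 0.05, against 3185 of all 16069, 3 called lower by DESeq2, and 0 called by edgeR without Cebpa_fl/fl 2). Both lists lay beside the fall of *Col4a1*, *Col4a2*, *Lama4*, *Lamc3* and *Nid2*. The adipocyte sums did not overlap, and the endothelial sums met only where Cebpa_ASKO 3 (201 TPM) was above Cebpa_fl/fl 1 (181 TPM). The paper, citing earlier work, places *Adipoq* downstream of C/EBPα, so the adipocyte sum need not follow the number of adipocytes. The 10 skeletal muscle markers (*Ckm* the most abundant) summed to 437, 723 and 473 TPM in the controls and to 1962, 4351 and 1577 TPM in Cebpa_ASKO, with 8 called higher, against 1.39% of all genes, although 7 of these calls ended with some library left out (*Myh4* kept its own). The 9 mammary epithelial markers (*Krt18* the most abundant, *Wap* at or near 0) summed to 688, 522 and 1037 TPM and to 1417, 1468 and 1569.6 TPM, with 0 of 8 tested called by edgeR (7 at an unadjusted p below 0.05, where all genes had 3185 of 16069, and 4 called higher by DESeq2). The 8 Schwann cell markers (*S100b* the most abundant) summed to 106, 120.2 and 77.2 TPM and to 234, 206 and 179.8 TPM, with 2 called higher, and the 9 smooth muscle and pericyte markers (*Acta2* the most abundant) to 306, 427 and 406 TPM and to 439, 584 and 482 TPM, with 1 called higher, against 1.39% of all genes. At an unadjusted p below 0.05 were 4 of the Schwann cell and 6 of the smooth muscle markers, against 3185 of all 16069 genes. DESeq2 called 3 higher in each list. The edgeR calls of both lists also ended with some library left out, with adjusted p up to 0.0750 for *S100b*, 0.128 for *Ncmap* and 0.0726 for *Abcc9* (edgeR). The sums of the skeletal muscle, mammary, Schwann cell and smooth muscle lists were higher in all Cebpa_ASKO libraries, as were *Comp* and *Col27a1*. That of the Schwann cell list rested on *S100b*, at 13.3, 8.11 and 5.21 TPM in the controls and 110.1, 96.0 and 44.97 TPM in Cebpa_ASKO, since the other 7 genes summed to 93.1, 112 and 72.03 TPM and to 124, 109.8 and 135 TPM, which overlap. The 9 keratinocyte markers (*Sbsn* the most abundant, *Flg* and *Dsg1a* at or near 0) overlapped, from 41.3 to 93.4 TPM in the controls and from 48.9 to 66.5 TPM in Cebpa_ASKO, with 0 called (0 at an unadjusted p below 0.05, 0 by DESeq2). The part of any of these cell types in the matrix results was not tested.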

How the data were processed

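Whole inguinal fat of 3 Cebpa_fl/fl and 3 Cebpa_ASKO mice was compared, with genotype and replicate taken from the labels. The authors deposited estimated counts per transcript from kallisto, not normalized, with effective transcript lengths beside them, and TPM, normalized for depth and length by them for each transcript and summed by them per gene symbol. The exception among the matrix genes was *Col4a6*, whose matched transcripts held a share of 0.5 of the authors' gene TPM. In Cebpa_fl/fl 1, for example, its only transcript with any TPM, Col4a6-201, stood at 1.12 TPM and the gene at 2.25 TPM. The authors' gene TPM of *Col4a6* may thus be too high, and the cause was not tested. That gene TPM enters a chain ratio and the basement membrane sum, which are less certain for this reason, while the fold change of *Col4a6* rests on counts. The submitters' processing notes name kallisto 0.44.0 and the builds GRCm38.p6 and GRCh38.p12. The transcript annotation is not given in the sources used here.

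Transcripts were joined to GENCODE M21 (116816 of 118489), and estimated counts were summed per symbol and rounded. The main test was edgeR 4.0.16 (glmQLFit and glmQLFTest, TMM, filterByExpr, R 4.3.3) with Benjamini-Hochberg adjustment over the 16069 genes tested. Calls required an adjusted p below 0.05. The script was tested on simulated counts. TPM are the authors' values and CPM are TMM-normalized. At these depths 3 counts equal between 0.0606 and 0.0905 CPM, counting error only. kallisto divides reads among similar transcripts and overlapping genes, so these are less certain. Replicates of a genotype differed by more than counting error, with a chi-square of 27.6 to 239 per degree of freedom.

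Genes followed through the alternatives were every called matrix gene, the 5 largest positive and 5 largest negative log2 fold changes at a mean TPM of at least 1, the most abundant gene of each role, the called gene of each list with the largest change in each direction, and *Cebpa*. Other genes in the text were chosen after values were seen. Members and lists were chosen with earlier results of these data known. *Nov*, *Cyr61* and *Ctgf* matched no symbol in the table. Alternatives were DESeq2 1.42.0, its size factors, library totals, no filter (at least 1 count), at least 10 counts in every library, a length offset, limma 3.58.1 on log2(TPM + 1) and log2(TPM + 0.1) filtered at 1 TPM in at least 3 libraries or not filtered, the replicate number as a block, a log2 fold change of at least 1, a member minimum of 1 or 5 TPM, and each library left out. Promoter windows are from RefSeq. Python 3.11.15, pandas 2.3.3 and scipy 1.17.1 were used.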

Additional observations from a re-analysis of the deposited data

How the results depend on the processing

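Main counts were 2 matrix genes higher and 2 lower, 4 and 4 genes of the pathway lists, and 223 and 617 of all genes. DESeq2 gave 5 and 4, 9 and 8, and 676 and 1137. Library totals gave 4 and 1 matrix genes and 2 lower list genes, and the length offset 2 lower list genes. Filtered limma at either pseudocount gave 1 lower matrix gene and 2 lower list genes. Unfiltered limma gave 1 and 0, 1 and 0, and 25 and 109. Requiring a log2 fold change of at least 1 left 0 lower matrix genes, 1 and 1 list genes, and 129 and 366 of all genes. A minimum of 5 TPM, which drops *Comp*, gave 1 higher matrix gene. *Comp* was not called by unfiltered limma or with the replicate number as a block (adjusted p = 0.259 and 0.0542). With that block there were 1 and 0 matrix genes, 0 and 1 list genes, and 74 and 296 of all genes. Deviations of same-numbered libraries correlated at 0.0662, 0.0278 and -0.201, and no library correlated best with its own number. With 3 libraries per genotype such correlations cannot exclude a pairing of the mice. The paper describes its experimental genotypes as littermates, but the replicate numbers do not state which mice shared a litter. Leaving out 1 library gave 2 to 6 and 0 to 3 matrix genes, 0 to 12 and 0 to 6 list genes, and 33 to 264 and 278 to 658 of all genes. The difference in mean summed matrix TPM, 413.8, lay between -419.7 and 1879.6 when a library was left out. Of 400 values of the 25 genes followed through the alternatives other than *Cebpa*, 329 kept their direction and side of the threshold and 9 changed sign, all in genes not called and all with a library left out: *Col3a1* (-0.37 to 0.093), *Col14a1* (-0.012 to 0.71), *Col8a1* (-0.80 to 0.17), *Fn1* (-0.0046 to 0.52), *Loxl1* (-0.041 to 0.50) and *Timp2* (-0.040 to 0.60). *Col1a1*, *Col5a1* and *Col5a2*, whose sign turned without Cebpa_fl/fl 2, are outside this tally. Where not stated, the cause was not tested.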
